A study of Homo sapiens with 4 samples.

Results

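The genes described here encode subunits of the proteasome and the main chaperone families of the cell, measured in 2 established lines of human lung squamous cell carcinoma, LK2 and H520. Members were every gene with a PSMA, PSMB, PSMC or PSMD symbol and number, an HSPA, HSPB, HSPD, HSPE or HSPH symbol and number, an HSP90 symbol, a DNAJA, DNAJB or DNAJC symbol and number, or a CCT symbol and number. PSMB8, PSMB9, PSMD2 and DNAJC19 were outside the rule. This gave 111 genes of the 18852 with a named probe on Illumina HumanHT-12 v3 BeadChips, read by 167 of 48801 probes. They comprised 32 proteasome genes on 48 probes and 79 chaperone genes on 119 probes. The subunit genes PSMA7, PSMC5, PSMD7 and PSMD13 were not among the 18852 genes, so the complex was not fully covered. The 4 groups were LK2 with pooled SOX2 siRNAs, LK2 with scrambled control siRNAs, H520 with pooled SOX2 siRNAs and H520 with scrambled control siRNAs, all harvested after 48 h, with 1 array each. SOX2 is a transcription factor of the squamous lineage, and the study asked how its depletion alters expression. No group had a replicate, the labels say nothing of separate cultures, and precision was limited by the number of arrays.

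The 26S proteasome degrades proteins tagged with ubiquitin. Its 20S core is a barrel of alpha rings, which gate entry, and beta rings, which cut the substrate, and its 19S cap holds ATPases that unfold substrates and non-ATPase subunits that recognise and deubiquitinate them. HSP70 chaperones bind unfolded segments, J proteins (DNAJ) deliver substrates to HSP70, HSP110 acts as its nucleotide exchange factor, HSP90 matures signalling proteins, and the chaperonins CCT and HSPD1 with HSPE1 fold proteins inside a chamber in the cytosol and in mitochondria. Heat shock factors drive inducible chaperone genes through heat shock elements, and the CNC-bZIP factors NFE2L1 and NFE2L2 drive proteasome genes through antioxidant elements.

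Promoter windows of 300 bases, 250 before and 50 after each gene's start, were taken from RefSeq on build GRCh38.p14, and 98 of the 111 genes had one. The 5 windows shown run 5′ to 3′ on the gene's strand. They are examples and do not stand for the members. PSMC4 is a 19S subunit that differed between the lines, and the others belong to the HSP70 family, where wide differences are described below. HSPA14, HSPA2 and HSPA4 differed more between the lines than HSPA8 and HSPA6 did and are not shown. PSMD10, PSMD8, PSMC6, PSMC3 and PSMC1 differed more than PSMC4. They are not among the proteasome genes listed below with the antioxidant core. Capitals mark the heat shock cores GAANNTTC and TTCNNGAA, which read the same on both strands and may overlap, and the antioxidant core TGACNNNGC on either strand. The HSPA1A window lies at chr6:31815293-31815592 on the plus strand, HSPA1B at chr6:31827488-31827787 on the plus strand, HSPA8 at chr11:123062087-123062386 on the minus strand, HSPA6 at chr1:161524290-161524589 on the plus strand and PSMC4 at chr19:39970915-39971214 on the plus strand.
HSPA1A: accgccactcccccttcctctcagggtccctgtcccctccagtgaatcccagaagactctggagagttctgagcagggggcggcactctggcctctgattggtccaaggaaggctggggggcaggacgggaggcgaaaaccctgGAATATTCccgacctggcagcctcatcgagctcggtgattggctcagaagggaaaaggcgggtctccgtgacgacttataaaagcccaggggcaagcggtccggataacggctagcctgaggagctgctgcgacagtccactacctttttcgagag
HSPA1B: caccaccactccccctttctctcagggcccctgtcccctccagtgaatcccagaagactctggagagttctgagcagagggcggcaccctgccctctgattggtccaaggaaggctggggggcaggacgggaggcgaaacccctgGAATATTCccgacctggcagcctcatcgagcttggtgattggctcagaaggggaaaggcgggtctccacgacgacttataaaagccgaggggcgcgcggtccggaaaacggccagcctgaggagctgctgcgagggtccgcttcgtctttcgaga
HSPA8: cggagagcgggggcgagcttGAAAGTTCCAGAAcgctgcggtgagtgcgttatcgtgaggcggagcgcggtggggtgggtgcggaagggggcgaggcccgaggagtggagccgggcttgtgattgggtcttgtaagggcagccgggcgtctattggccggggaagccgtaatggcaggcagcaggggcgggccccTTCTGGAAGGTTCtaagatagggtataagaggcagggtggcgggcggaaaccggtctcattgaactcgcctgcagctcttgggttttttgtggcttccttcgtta
HSPA6: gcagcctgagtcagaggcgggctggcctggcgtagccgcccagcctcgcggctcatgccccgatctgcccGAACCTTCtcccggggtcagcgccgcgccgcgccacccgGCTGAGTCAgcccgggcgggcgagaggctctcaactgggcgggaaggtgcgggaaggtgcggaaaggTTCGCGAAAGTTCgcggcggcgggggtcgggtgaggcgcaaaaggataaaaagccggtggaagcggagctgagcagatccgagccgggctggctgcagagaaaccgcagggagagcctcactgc
PSMC4: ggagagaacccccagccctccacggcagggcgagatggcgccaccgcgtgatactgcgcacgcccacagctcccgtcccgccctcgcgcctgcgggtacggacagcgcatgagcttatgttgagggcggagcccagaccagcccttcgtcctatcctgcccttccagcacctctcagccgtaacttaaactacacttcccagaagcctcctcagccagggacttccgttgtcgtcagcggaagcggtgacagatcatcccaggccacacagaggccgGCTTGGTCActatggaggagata
HSPA1A and HSPA1B carried the same single heat shock core, and their windows were identical at 277 of 301 aligned positions (92%). The HSPA1L window overlapped that of HSPA1A by 241 bases on the opposite strand. HSPA8 held 4 heat shock cores in overlapping pairs, HSPA6 held 3 with an antioxidant core, and PSMC4 held an antioxidant core alone.

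A heat shock core was present in 22.9% of 70 chaperone windows and 7.14% of 28 proteasome windows, against 13.7% of all 27305 windows. At least 3 cores were found in HSPA8, HSPA6 and DNAJA1, which is 4.29% of the chaperone windows, against 0.183% of all windows. The antioxidant core occurred in 25% of proteasome windows and 15.7% of chaperone windows, against 13.6% of all windows. Proteasome genes with the antioxidant core were PSMB3, PSMC4, PSMD1, PSMD3, PSMD5, PSMD9 and PSMD12. These matches describe letters in a window and no binding was measured.

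The deposited values were log2 values centred per probe, so they give differences between arrays and no expression level. SOX2 itself had -1.97 with SOX2 siRNA against 0.14 with control siRNA in LK2, and -0.38 with SOX2 siRNA against 0.28 with control siRNA in H520. The differences, -2.11 in LK2 and -0.66 in H520, correspond to 4.33-fold and 1.58-fold lower signal. Over both lines the mean was -1.38 ± 0.31 (moderated SE, n = 2 lines). It did not pass limma's test after Benjamini-Hochberg adjustment over all genes (adjusted p = 0.33). Each SE given here is limma's moderated SE. It draws mostly on the spread shared across all genes and is not computed from the gene's own values alone. The 8 immune, endothelial and fibroblast markers measured differed by -0.15 to 0.15 between SOX2 siRNA and control in LK2 and by -0.25 to 0.15 in H520. Of the squamous markers, KRT5 differed by 0.05 in LK2 and 0.02 in H520, and DSG3 by 0.32 in LK2 and -0.14 in H520. Centring leaves no level from which to check the tissue label. In bulk RNA, fewer cells of a type and less RNA per cell cannot be told apart.

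The proteasome genes differed little between SOX2 siRNA and control arrays, and no gene of either class passed the test over both lines. Limma, fitted on all 4 arrays with cell line as a term, called 0 of 111 members higher or lower at an adjusted p under 0.05; over all genes it called 0.0053% higher and 0% lower. At an unadjusted p under 0.05, 4 members were higher (HSPA12A, DNAJB4, HSPA1A and HSPA1L) and 3 lower (PSMA2, DNAJC3 and HSPA4L), where 4.26% of all genes were higher and 4.14% lower. The members' counts were near that background. With 1 residual degree of freedom, the errors rest mostly on the spread shared across all genes.

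Within LK2, 0 members were at least 1.5-fold higher and 2 were at least 1.5-fold lower (HSPA8 and HSPA4L), where 1.9% of all genes were higher and 1.3% lower by that fold. Within H520, 0 members passed 1.5-fold in either direction, where 0.806% of all genes were higher and 1.07% lower. These within-line counts have no replicate check.

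**Figure D1:**
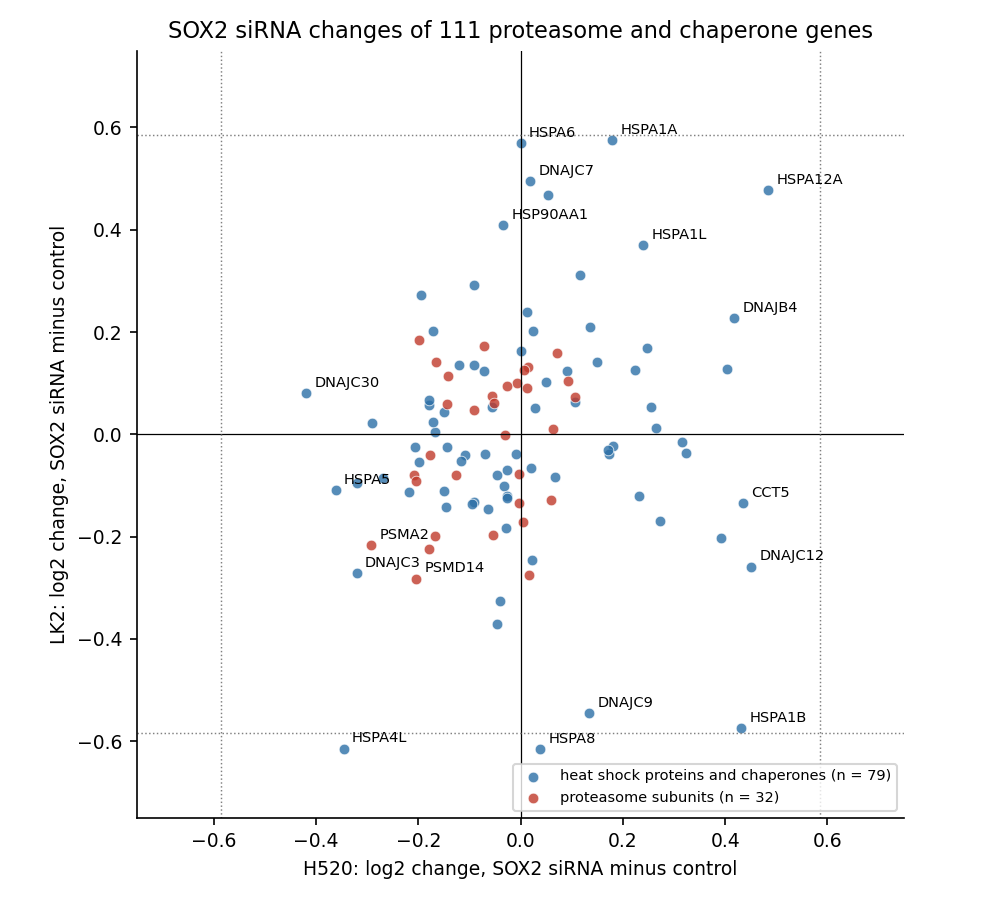
Log2 change of each of the 111 genes, SOX2 siRNA minus control, in LK2 (vertical axis) and H520 (horizontal axis), with 1 point per gene (mean of its probes) from 1 array per group. Dotted lines mark 1.5-fold. The 32 proteasome subunits (red) lie between -0.28 and 0.18 in LK2, while chaperones (blue) reach -0.62 and 0.58.

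The 32 proteasome genes had a median change of 0.03 in LK2 and -0.05 in H520, and the SD over genes was 0.14 in LK2 and 0.10 in H520. The 79 chaperone genes had medians of -0.02 in LK2 and -0.03 in H520, with SDs of 0.24 and 0.21, close to the SDs over all genes of 0.26 and 0.21. At 1.2-fold, 0 proteasome genes were higher and 2 lower in LK2 (PSMD14 and PSMD5), and 0 were higher and 1 lower in H520 (PSMA2). Chaperones at that fold numbered 10 higher and 7 lower in LK2, and 11 higher and 7 lower in H520. Of all genes, 9.3% were higher and 8.99% lower by 1.2-fold in LK2, and 7.03% were higher and 7.77% lower in H520.

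In the 20S core, all 9 beta ring genes, among them the tissue-restricted PSMB11, were lower with SOX2 siRNA in H520. Of all genes, 49.3% were lower there at any size. Of the 9, 6 were lower in both lines. All were under 1.2-fold, and the counts include values close to 0 for PSMB2 in H520 (-0.0029) and PSMB5 in LK2 (-0.00052). Their median change was -0.04 in LK2 and -0.17 in H520. Any lower value in both lines, whatever its size, was found for 12 of 32 proteasome genes and 26 of 79 chaperones, against 27% of all genes, and any higher value in both lines for 7 proteasome genes and 22 chaperones, also against 27% of all genes. PSMB7, which carries the trypsin-like active site, had 0.04 with SOX2 siRNA against 0.27 with control in LK2, and -0.04 against 0.13 in H520. PSMB5, which carries the chymotrypsin-like site and is the target of bortezomib, had a change of 0.00 in LK2 and -0.03 in H520, so its arrays barely differed. PSMA2, an alpha ring subunit, had 0.00 with SOX2 siRNA against 0.21 with control in LK2, and -0.07 against 0.22 in H520. Its mean change was -0.25 ± 0.10 (moderated SE, n = 2 lines, limma adjusted p = 0.57), the lowest of the proteasome genes. Both SOX2 siRNA arrays lay below their own control for PSMA2, and the 2 control arrays differed from each other by less than 0.01.

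In the 19S cap, PSMD14, the deubiquitinase of the lid, had -0.29 with SOX2 siRNA against -0.01 with control in LK2, and 0.16 against 0.37 in H520. Its mean change was -0.24 ± 0.10 (adjusted p = 0.60), lower in both lines. PSMD11, a lid subunit, had changes of 0.10 in LK2 and 0.09 in H520. PSMD4, a ubiquitin receptor, had changes of -0.20 in LK2 and -0.05 in H520. Of the 5 ATPase genes measured, 1 was lower in LK2 and 4 were lower in H520, and only PSMC4 was lower in both. Across the 32 genes limma's adjusted p for the siRNA change ran from 0.57 to 0.99.

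The HSP70 and HSP110 genes gave the widest spread among the chaperone subgroups in LK2, with an SD over 15 genes of 0.41, against 0.25 in H520. HSPA8, the constitutive cytosolic HSP70, had -0.95 with SOX2 siRNA against -0.33 with control in LK2, and 0.31 against 0.27 in H520. The change of -0.62 in LK2 was 1.53-fold, both of its probes were lower there (-0.66 and -0.57), and the H520 arrays differed by 0.04. HSPA4L, an HSP110 family member, had -1.03 against -0.42 in LK2 and 0.10 against 0.44 in H520. Its mean change was -0.48 ± 0.11 (moderated SE, n = 2 lines, limma adjusted p = 0.35), below control in both lines. HSPH1, the stress-inducible HSP110, had changes of -0.33 in LK2 and -0.04 in H520.

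The stress-inducible HSP70 genes did not move together. HSPA1A had -2.28 with SOX2 siRNA against -2.85 with control in LK2, and 0.18 against 0.00 in H520. HSPA1B had -1.58 against -1.001 in LK2, and 0.75 against 0.32 in H520. The change in LK2 was thus 0.58 for HSPA1A and -0.57 for HSPA1B, while in H520 both were above control, by 0.18 and 0.43. These genes encode nearly the same protein and their transcripts are near-identical copies, each was read by 1 probe, and how far each probe also binds the other transcript was not tested. HSPA1L, their neighbour expressed mainly in testis, had changes of 0.37 in LK2 and 0.24 in H520. Over both lines the mean was 0.38 ± 0.13 for HSPA1A and 0.30 ± 0.10 for HSPA1L (adjusted p = 0.49 for both), and -0.07 ± 0.23 for HSPA1B (adjusted p = 0.98). HSPA6, a strictly inducible HSP70, had changes of 0.57 in LK2 and 0.00 in H520.

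The highest mean siRNA change of any member was that of HSPA12A, a distant HSP70 relative. It was 0.48 ± 0.10 (moderated SE, n = 2 lines, limma adjusted p = 0.30). HSPA12A had 0.33 with SOX2 siRNA against -0.15 with control in LK2, and 0.09 against -0.40 in H520. Of the 3 HSPA12A probes, 1 had changes of 1.10 in LK2 and 1.61 in H520 (mean 1.36, adjusted p = 0.020 among probes tested singly), whereas the others had 0.30 and 0.03 in LK2 and -0.09 and -0.07 in H520. The gene's mean therefore rests on 1 probe. HSPA6 likewise had 1 probe at 1.13 and 1 at 0.01 in LK2. HSPA8, HSP90AA1 and DNAJB4 had probes that lay on the same side in LK2, and DNAJC12 had 4 probes below 0 in LK2 and above 0 in H520.

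**Figure D2:**
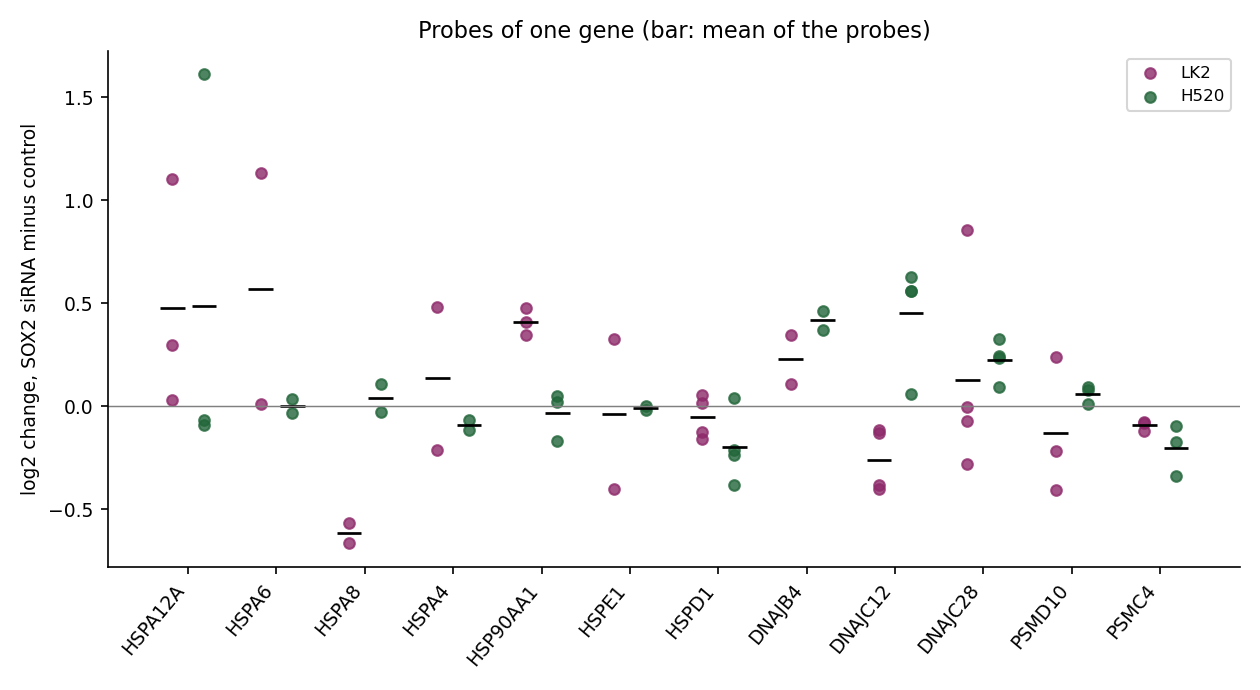
Log2 change, SOX2 siRNA minus control, of each probe (points) of 12 genes in LK2 (purple) and H520 (green), with the mean of a gene's probes as a bar. A single probe stands apart for HSPA12A in both lines (1.10 and 1.61) and for HSPA6 in LK2 (1.13), and the probes of HSPE1 lie on both sides of 0 in LK2.

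Among the 35 members read by more than 1 probe, the median SD between probes of a gene was 0.13 for the change in LK2 and 0.10 for the change in H520. Probes of both signs occurred for 15 of these genes in LK2 and 21 in H520.

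No endoplasmic reticulum chaperone passed the siRNA test. HSPA5, the HSP70 of that compartment, had -0.16 with SOX2 siRNA against -0.05 with control in LK2 and -0.14 against 0.22 in H520, a mean change of -0.24 ± 0.11 (adjusted p = 0.66). DNAJC3, a J protein that works with HSPA5, had -0.42 against -0.15 in LK2 and 0.21 against 0.53 in H520, a mean of -0.30 ± 0.10 (adjusted p = 0.49), with nearly equal changes in the lines (-0.27 and -0.32). HSP90B1, the HSP90 of that compartment, had changes of 0.14 in LK2 and -0.12 in H520. DNAJB9, another J protein there, had 0.24 in LK2 and 0.01 in H520. Chaperones of that compartment among the related genes were lower in both lines or differed in sign between them, except for PDIA3. The lectin chaperone CANX had changes of -0.30 in both lines, and its relative CALR had 0.18 in LK2 and -0.21 in H520. SDF2L1, a partner of HSPA5, had -0.24 in LK2 and -0.28 in H520. The disulfide isomerase PDIA3 had 0.18 in LK2 and 0.02 in H520, and PDIA4 had -0.19 in LK2 and 0.10 in H520. PDIA6 had -0.12 in LK2 and -0.37 in H520, and CRELD2 had -0.08 in LK2 and -0.60 in H520. SERPINH1 had -0.08 in LK2 and -0.50 in H520, and HYOU1 had -0.006 in LK2 and -0.34 in H520. MANF had -0.14 in LK2 and 0.02 in H520, and SIL1 had 0.01 in LK2 and -0.02 in H520.

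Of the cytosolic HSP90 genes, HSP90AA1, the inducible form, had changes of 0.41 in LK2 and -0.03 in H520, and HSP90AB1, the constitutive form, had -0.02 and -0.14. The mitochondrial chaperonin HSPD1 had -0.05 in LK2 and -0.20 in H520, and its partner HSPE1 had -0.04 and -0.01, though the 2 HSPE1 probes gave 0.33 and -0.40 in LK2. HSPA9, the mitochondrial HSP70, had 0.29 in LK2 and -0.09 in H520. Of the 8 genes with a CCT symbol, 5 were lower in both lines (CCT3, CCT4, CCT6A, CCT7 and CCT8), where 27% of all genes were. The changes of all 8 ran from -0.37 to 0.12 in LK2. TCP1, a CCT subunit without that symbol, was read with the related genes and had -0.09 in LK2 and 0.11 in H520. CCT5 had -0.13 in LK2 and 0.44 in H520. None of these passed limma's test over both lines.

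DNAJB4, which partners cytosolic HSP70, had 0.32 with SOX2 siRNA against 0.10 with control in LK2 and 0.23 against -0.19 in H520, a mean of 0.32 ± 0.11 (adjusted p = 0.49), higher in both lines. DNAJC9, a histone chaperone, had -0.87 against -0.33 in LK2 and 0.87 against 0.73 in H520, so it was below control in LK2 and above it in H520. DNAJC12, which assists aromatic amino acid hydroxylases, had changes of -0.26 in LK2 and 0.45 in H520. DNAJC7, which binds HSP70 and HSP90, had 0.50 in LK2 and 0.02 in H520. DNAJB1, the main inducible J protein, had -0.11 and -0.22. The 7 small heat shock proteins stayed between -0.25 and 0.31 in LK2 and between -0.29 and 0.15 in H520, and HSPB1, the abundant member in epithelia, had 0.14 and 0.15.

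Between the cell lines, 48 of the 111 members passed limma's test, against 0 between the siRNA arms. LK2 was lower than H520 in proteasome genes across all 4 layers of the complex: 17 of 32 passed limma's test as lower in LK2 and 1 as higher, where 13.4% of all genes were lower and 14% higher. Of the genes called, 94.4% were thus lower among proteasome genes, 63.3% among chaperones (19 lower and 11 higher of 79) and 48.9% over all genes. The median LK2 minus H520 difference was -0.36 over proteasome genes, -0.05 over chaperones and 0.01 over all genes. LK2 lay below H520 in both array pairs, SOX2 siRNA against SOX2 siRNA and control against control, for 23 proteasome genes, and above it in both pairs for 4, where 35.4% of all genes were below and 38.7% above. The 2 arrays of a line served as its replicates, and the fit removed a siRNA effect common to both lines. These p-values therefore rest on how far the line difference varied between the siRNA arms and on the spread shared across all genes. They do not cover the spread between cultures.

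**Figure D3:**
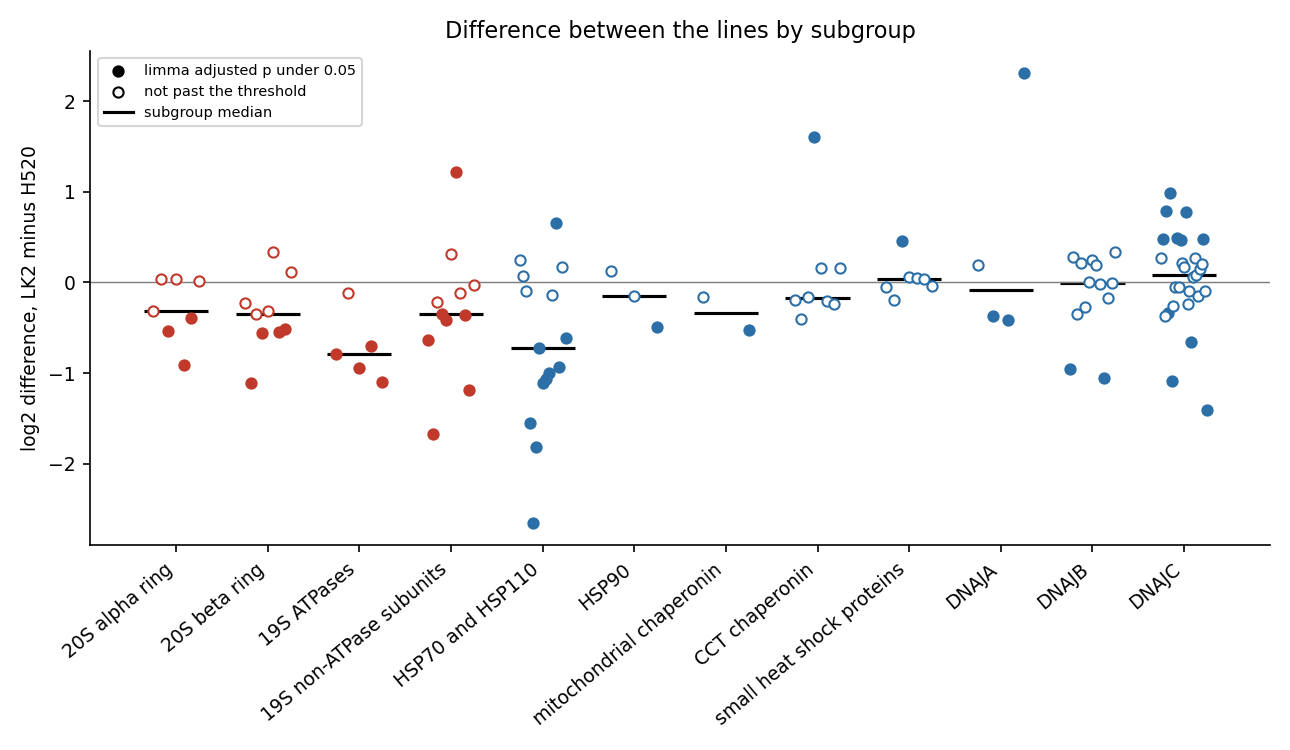
LK2 minus H520 log2 difference from the fit on 4 arrays for each gene (points), grouped by subgroup, with filled points past limma's adjusted threshold and bars at subgroup medians. The 19S ATPases have a median of -0.79 and the HSP70 and HSP110 genes one of -0.72, while DNAJC genes scatter around 0.09.

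Among alpha ring genes, PSMA5 had -0.53 and -0.62 in LK2 (SOX2 siRNA and control) against 0.34 and 0.33 in H520. The difference was -0.91 ± 0.10 (moderated SE, limma adjusted p = 0.00139). The LK2 arrays lay below both H520 arrays with a gap far wider than the distance between arms. PSMA3 and PSMA6 also passed as lower, at -0.54 and -0.39. Of the beta ring, PSMB10, the inducible immunoproteasome subunit, had -0.27 and -0.45 in LK2 against 0.65 and 0.85 in H520, a difference of -1.11 ± 0.13 (adjusted p = 0.0015). The constitutive subunits PSMB5 (-0.55), PSMB6 (-0.52) and PSMB2 (-0.56) passed in the same direction. PSMB4 (0.33) and PSMB7 (0.11) had positive values and did not pass.

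Of the 5 ATPases measured, 4 were called lower in LK2, where 13.4% of all genes were. They were PSMC6 at -1.09, PSMC3 at -0.94, PSMC1 at -0.79 and PSMC4 at -0.70. PSMC6 had -0.52 and -0.53 in LK2 against 0.60 and 0.54 in H520 (SE 0.10, adjusted p = 0.000677). PSMC2 had -0.12 and did not pass. Both PSMC6 probes and all 3 PSMC4 probes were called lower when tested singly.

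The widest proteasome differences were in non-ATPase genes. PSMD10, also known as gankyrin, is an assembly chaperone of the 19S base and was counted with the subunits by its symbol. It had -1.57 and -1.45 in LK2 against 0.19 and 0.13 in H520. The difference was -1.67 ± 0.11 (limma adjusted p = 0.000197), and each of its 3 probes was called lower. PSMD8, a lid subunit, had -0.96 and -1.06 in LK2 against 0.16 and 0.19 in H520, a difference of -1.19 ± 0.10 (adjusted p = 0.000561). PSMD4 went the other way, with 1.12 and 1.32 in LK2 against -0.03 and 0.03 in H520, a difference of 1.22 ± 0.10 (adjusted p = 0.000529), and both of its probes were called higher. It was the proteasome gene called higher in LK2. PSMD1, PSMD6, PSMD12 and PSMD14 passed as lower, with PSMD6 and PSMD12 close to the threshold (adjusted p = 0.049 and 0.0497). When probes were tested singly, PSMD12 was called on 1 of 4 probes (-0.91, the others -0.34 to -0.02) and PSMD6 on 1 of 2 (-0.57, the other -0.16). Among the 18 members called by gene that had several probes, every probe was called the same way for 10 and only some probes for 8. Among the 17 with several probes that were not called by gene, 8 had a called probe.

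**Figure D4:**
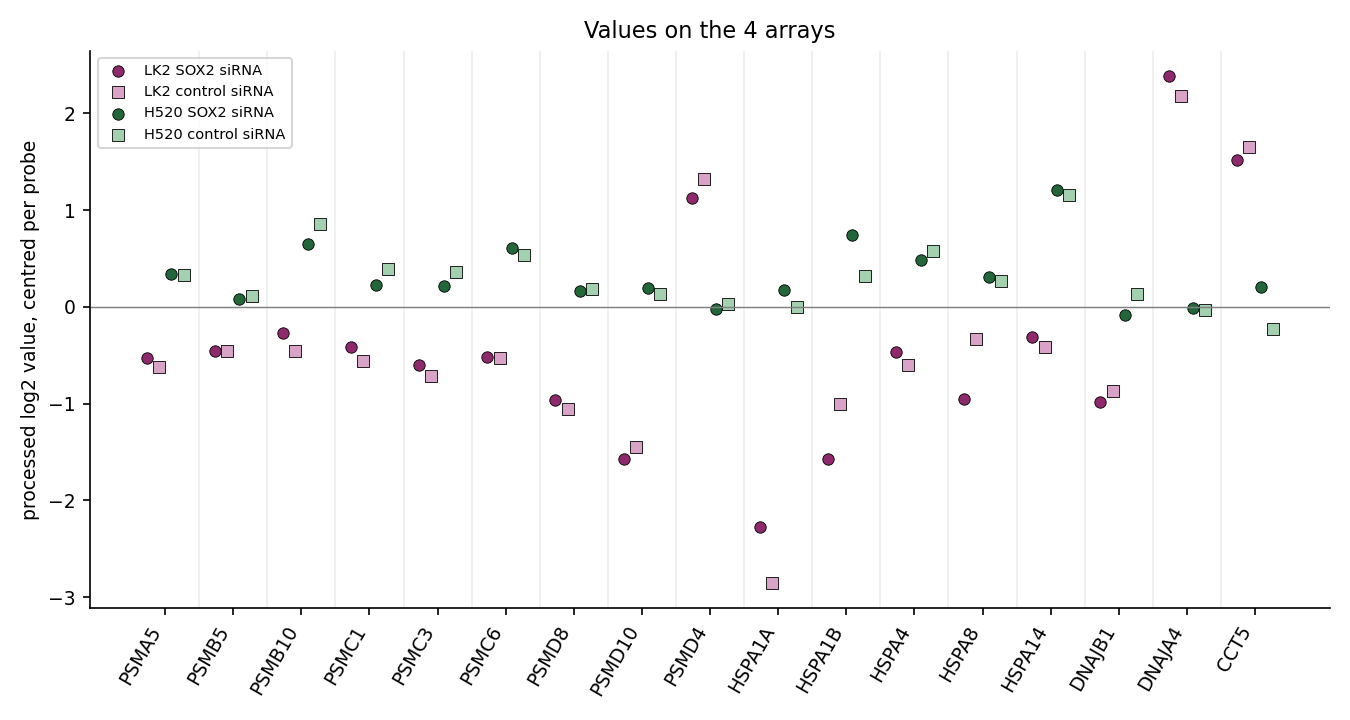
Processed log2 values, centred per probe, on the 4 arrays for 17 genes: LK2 with SOX2 siRNA, LK2 control, H520 with SOX2 siRNA and H520 control. Circles are SOX2 siRNA and squares control. All 17 genes were picked from those called between the lines, so their separation follows from that choice. Both LK2 arrays lie below both H520 arrays for 14 of the genes, and above them for PSMD4 (1.12 and 1.32), DNAJA4 and CCT5.

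Chaperones were divided. The HSP70 and HSP110 genes were the subgroup with the most calls in 1 direction, with 9 of 15 lower in LK2 and 1 higher. Of all genes, 13.4% were called lower and 14% higher. The subgroup's median difference was -0.72. The 9 include the neighbouring genes HSPA1A, HSPA1B and HSPA1L. How far the HSPA1A and HSPA1B probes bind each other's transcript was not tested. HSPA1A differed by -2.65 ± 0.13 (adjusted p = 7.66e-05) and HSPA1B by -1.82 ± 0.23 (adjusted p = 0.00209), and both LK2 arrays lay below both H520 arrays for each. HSPA14, a ribosome-associated HSP70, had -0.32 and -0.42 in LK2 against 1.21 and 1.16 in H520, a difference of -1.55 ± 0.10 (adjusted p = 0.000204). HSPA2, HSPA4, HSPA4L, HSPA8, HSPA1L and HSPH1 also passed as lower, with differences of -0.62 to -1.11. HSPA6 was higher in LK2 at 0.66 ± 0.15 (adjusted p = 0.022), carried by 1 of its 2 probes (1.38 and -0.07). HSPA5, HSPA9, HSPA12A, HSPA12B and HSPA13 did not pass.

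Outside HSP70, DNAJB1 was lower in LK2 at -0.96 ± 0.10 and DNAJC9 at -1.40 ± 0.17, and DNAJC15, a mitochondrial J protein, at -1.09 ± 0.11. DNAJB6 differed by -1.06 ± 0.11, but its 2 probes disagreed, with -2.36 for 1 and 0.24 for the other. DNAJA4, a J protein of the cytosol, had the highest LK2 minus H520 difference of all members, with 2.39 and 2.18 against -0.01 and -0.04 in H520, a difference of 2.31 ± 0.11 (adjusted p = 6.85e-05). CCT5 had 1.52 and 1.66 in LK2 against 0.21 and -0.23 in H520, a difference of 1.60 ± 0.15 (adjusted p = 0.000765), and was the 1 CCT gene of 8 called. DNAJC14, DNAJC12 and DNAJC25 were higher at 0.99, 0.79 and 0.78, as were DNAJC18 (0.49), DNAJC10 (0.48), DNAJC7 (0.48), DNAJC21 (0.47) and HSPB3 (0.45). With probes tested singly, DNAJC10 was called on 1 of 2 (0.66, the other 0.31). DNAJC21 was called on 2 of 3 (0.69 and 0.71, the other 0.002). The DNAJC7 call was lost when arrays were shifted to a median of 0 (adjusted p = 0.053) and with robust moderation (adjusted p = 0.055). DNAJC3 (-0.66), DNAJA3 (-0.42), DNAJA2 (-0.37) and DNAJC13 (-0.34) passed as lower. HSP90AA1 (0.12) and HSP90AB1 (-0.15) did not pass, while HSP90B1 was lower at -0.50 ± 0.11 (adjusted p = 0.020). HSPE1 was lower at -0.52 ± 0.10, with 1 of its 2 probes called when tested singly (-0.71, the other -0.34). HSPD1, whose promoter window shares 204 bases with that of HSPE1, had -0.16 and did not pass.

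Copy number was not measured. For each gene up to 20 of the nearest measured genes outside the members were set beside it. They were taken from either side on its chromosome, in RefSeq order. PSMB1 had 12, DNAJB6 had 15 and HSPA13 had 16. The neighbours' median difference ranged from -0.30 to 0.38 across the 32 proteasome genes, with a middle value of 0.04, and 30 of the 32 genes lay below their own neighbours' median. That count largely repeats that most proteasome genes were lower in LK2. Neighbours on dim probes could not be filtered out, so the neighbour medians are no measure of copy number. A part of copy number in these differences was not tested. PSMD10 had -1.67 where its neighbours had a median of -0.18, PSMB10 -1.11 where they had -0.30, and PSMD4 1.22 where they had 0.23. Of the 20 neighbours of PSMD10, 8 were called lower in LK2 and 1 higher. Of the 20 of PSMB10, 8 were called lower and 0 higher, and of the 20 of PSMD4, 3 lower and 8 higher. Over all genes 13.4% were called lower and 14% higher. For chaperones, 42 of 79 lay below their neighbours' median.

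**Figure D5:**
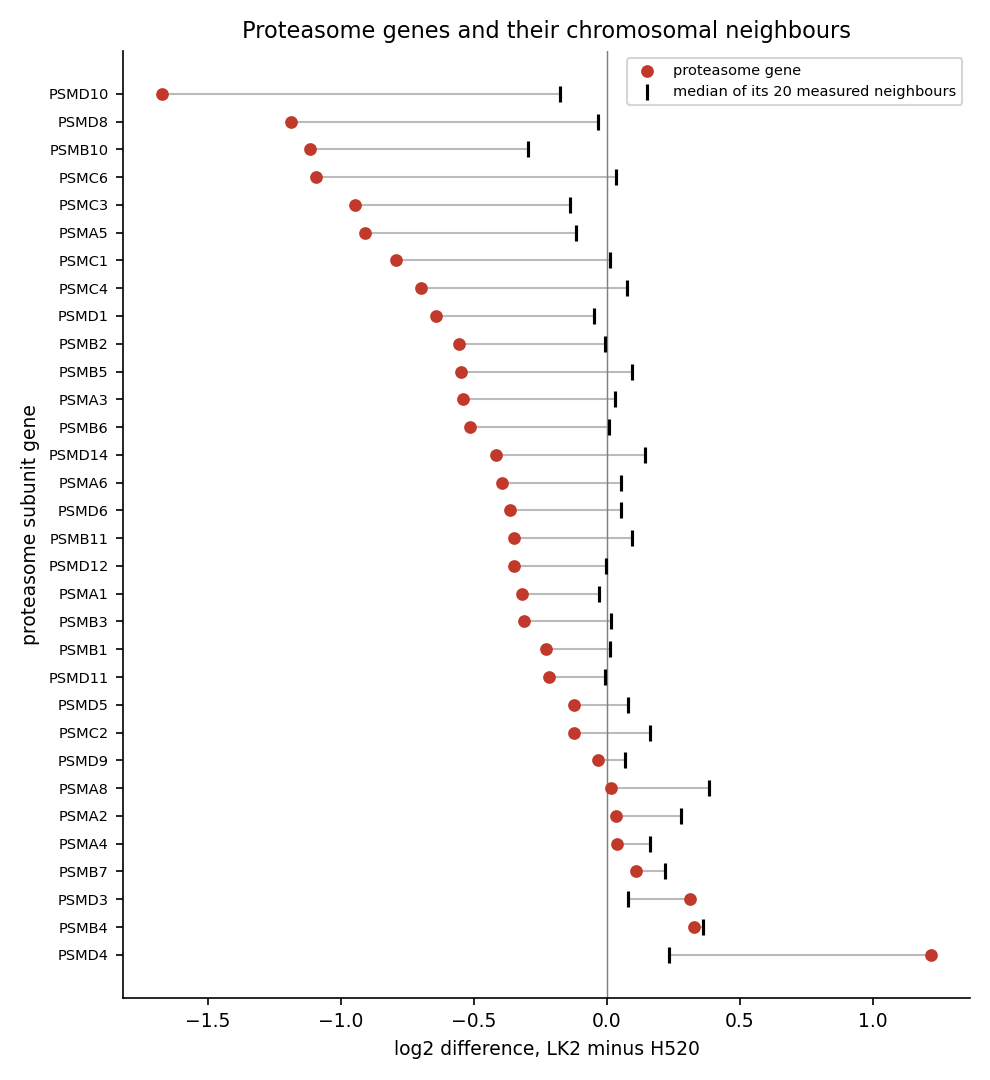
LK2 minus H520 log2 difference of each proteasome gene (red point), sorted from the lowest gene. The black tick is the median over its nearest measured non-member genes on the chromosome (20, or 12 for PSMB1). The neighbour medians lie between -0.30 and 0.38, and 30 of 32 genes lie to the left of them.

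Genes that serve the same systems were read from a list separate from the members. Of 24 proteasome-related genes, 0 passed the siRNA test, 9 had positive and 8 negative changes in both lines, where 27% of all genes did so each way. Between the lines 6 were called higher and 7 lower in LK2, where 14% of all genes were higher and 13.4% lower. NFE2L2, the oxidative stress factor, had 0.70 with SOX2 siRNA against -0.02 with control in LK2 and 0.02 against -0.39 in H520, a mean of 0.57 ± 0.12 (adjusted p = 0.30). NFE2L1, which drives proteasome genes when the proteasome is inhibited, had changes of 0.57 in LK2 and -0.12 in H520, and was higher in LK2 than in H520 by 1.66 ± 0.17 (adjusted p = 0.00104). PSME2, an activator subunit of the immunoproteasome, was lower in LK2 at -1.06 ± 0.10. The ubiquitin-binding autophagy receptor SQSTM1 had a siRNA change of 0.38 in LK2 and 0.53 in H520 (adjusted p = 0.34).

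Of 40 chaperone-related genes, 0 passed the siRNA test, 10 had positive and 13 negative changes in both lines, where 27% of all genes did so each way. Between the lines 4 were called higher and 14 lower in LK2, where 14% of all genes were higher and 13.4% lower. BAG3, an HSP70 cofactor of the stress response, had siRNA changes of 0.31 in LK2 and 0.22 in H520 and was lower in LK2 than in H520, with a difference of -1.05 ± 0.10 (adjusted p = 0.000824). HSF1, the main heat shock factor, differed by 0.12 ± 0.11 between the lines and did not pass.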

How the data were processed

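Per the labels' protocols, biotin-labelled cRNA from total RNA was hybridised to Illumina HumanHT-12 v3 BeadChips. The log2 values are those the authors deposited, quantified and centred by steps not given in the sources used here; the centring hides levels and cancels in differences between arrays. A table of scanner intensities had 4 columns matching no label, used only to settle the log base (correlation of differences 0.994 and 0.993, SD ratios 0.901 and 1.07, where natural logs would give 0.693). Of 48801 probes, 28096 had 1 gene symbol, 13 several and 20692 were not listed. Probes of a gene were averaged, without a filter on dim probes, since detection could not be assigned to samples. Limma 3.58.1 in R 4.3.3 was fitted on 4 arrays with siRNA and cell line as terms, the line pairing the arrays as the labels state (residual df 1, prior df 5.19), with Benjamini-Hochberg adjustment over 18852 genes and a threshold of 0.05; the fit was tested on simulated data. Counts at 1.5-fold within a line have no test. Named genes were those past the adjusted threshold, the extremes of change in each class, and fixed reference genes, inducible and constitutive. Members and lists were chosen with earlier results of these data known, and the subgroups and the list of tissue-restricted members were written after values were seen. TP63, KRT6A and the 4 genes outside the rule were not analysed here.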

Additional observations from a re-analysis of the deposited data

Results flagged for a closer look

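HSPA1B was picked out because its arrays moved at least 1.2-fold in opposite directions in the lines: SOX2 siRNA minus control was -0.57 in LK2 and 0.43 in H520, so the change in LK2 minus that in H520 was -1.01. It was the 1 member of 111 to do so, where 1.11% of all genes did, so the count was near that background. HSPA1B was read by 1 probe, and how far that probe also binds the HSPA1A transcript was not tested. The difference between the lines was not tested, since each arm had 1 array.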

How the results depend on the processing

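Shifting each array to a median of 0 and robust variance moderation each kept 47 of the 48 line calls among members and all 31 among related genes, added none, and called 0 for the siRNA; DNAJC7 was lost (adjusted p = 0.053 and 0.055), giving 10 chaperones higher in LK2 in place of 11. Without 13 tissue-restricted members, 17 of 30 proteasome and 18 of 68 chaperone genes were lower in LK2. At an unadjusted p under 0.05 the siRNA test gave 1 proteasome gene lower, 4 chaperones higher and 2 lower. With each probe tested on its own it gave 1 chaperone probe higher (HSPA12A, 1.36, adjusted p = 0.020), and the line test gave 25 proteasome and 26 chaperone probes lower and 2 and 17 higher in LK2. Of 17 members with several probes and no line call, 8 had a called probe: CCT3 (-0.50), CCT7 (-0.44), DNAJB12, DNAJB14, HSP90AA1 (0.88), HSPA12A (0.67), HSPD1 (-0.41) and PSMA1 (-0.64). A probe with the other siRNA sign than its gene occurred in 17 of 35 members; it was the probe farthest from the mean for DNAJC12 (-0.029), HSPD1 (0.027), HSPE1 (0.15) and PSMD10 (0.16) among the named genes checked, and the cause was not tested. At 1.2-fold LK2 had 2 proteasome genes lower and 10 chaperones higher and 7 lower, and H520 had 1, 11 and 7; at 2-fold LK2 had 0 chaperones lower. Counted by probe at 1.5-fold, 3 chaperone probes were higher in LK2 and 2 in H520. Without cell line as a replicate block the siRNA test called 0 members. Leaving out a replicate was not possible with 1 array per group, and the within-line values stand in its place; dim probes could not be filtered.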
